A study of Homo sapiens with 4 samples.

Results

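The RAS-MAPK output and feedback genes examined here are 10 genes whose transcription is widely used as a readout of ERK activity, namely DUSP4, DUSP5, DUSP6, SPRY1, SPRY2, SPRY4, SPRED1, ETV4, ETV5 and EGR1. The genes are picked by symbol and no measured value enters the rule, but they were chosen with earlier results of these data known. All 10 were found among the 39323 genes of the expression tables. The tables hold 4 RNA-seq libraries of RD and JR1 cells, established lines of fusion-negative rhabdomyosarcoma, a childhood tumor with features of skeletal muscle precursors. The groups were RD shSCR, RD shSKP2, JR1 shSCR and JR1 shSKP2, each with 1 library. shSKP2 is a hairpin RNA against SKP2, the substrate receptor of an SCF ubiquitin ligase that marks cyclin-dependent kinase inhibitors for degradation, and shSCR is a hairpin without a target. All 4 libraries came from cells infected with a pLKO.1 lentivirus and selected with puromycin in medium with serum, so untransduced cells were not among them, and 1 hairpin against SKP2 was sequenced. The time from infection to RNA collection is not given in the sources used here. The level of each gene is given in TPM, the share of a gene among all transcripts on a fixed scale, which is scaled for transcript length and can be compared between genes. With 1 library per group there was no replicate check, no difference was tested, and the depth of the libraries is unknown because TPM keep no read counts.

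The RAS-MAPK pathway carries growth signals from receptors through RAS, RAF and MEK to the kinase ERK, which enters the nucleus and switches on genes within minutes to hours. Several of the induced genes feed back on the pathway. DUSP proteins remove the activating phosphates from ERK, Sprouty and SPRED proteins block the path from receptors to RAF, and ETV and EGR factors carry the signal on as transcription factors. Mutations that activate this pathway are frequent in fusion-negative rhabdomyosarcoma, RD cells carry mutant NRAS, and in muscle precursors high ERK activity is known to hold back differentiation.

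Reference promoters of EGR1 and DUSP6 are shown because these genes carry known binding motifs of factors that act under ERK. EGR1 is controlled through CArG boxes, the binding motif of serum response factor (SRF), which works together with ELK factors that ERK phosphorylates. DUSP6 belongs to the genes that the repressor CIC silences until ERK signalling inactivates it. Of the 10 genes, 6 had an entry in the promoter table of RefSeq (GRCh38.p14), with 9 start sites in all, and DUSP4, DUSP5, ETV4 and ETV5 had none. The sequences below are the 250 bases before the start site, 5′ to 3′ on the strand of the gene, with CArG boxes in capitals for EGR1 (plus strand, chr5:138465229-138465478) and with a CIC octamer in capitals for DUSP6 (minus strand, chr12:89352502-89352751).
EGR1: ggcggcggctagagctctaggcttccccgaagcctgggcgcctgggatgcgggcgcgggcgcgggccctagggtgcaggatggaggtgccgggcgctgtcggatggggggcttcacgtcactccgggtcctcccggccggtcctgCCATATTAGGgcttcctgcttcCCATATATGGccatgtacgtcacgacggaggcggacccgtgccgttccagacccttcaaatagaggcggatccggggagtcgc
DUSP6: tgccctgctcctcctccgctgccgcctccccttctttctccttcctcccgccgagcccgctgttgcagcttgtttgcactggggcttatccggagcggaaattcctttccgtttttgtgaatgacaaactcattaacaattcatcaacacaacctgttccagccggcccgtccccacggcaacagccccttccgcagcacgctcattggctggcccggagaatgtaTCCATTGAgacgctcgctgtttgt

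The CArG boxes of EGR1 begin 105 and 83 bases before the start site. At least 1 CArG box was present in 1.16% of the 35116 promoter sequences of this length in the table, and 2 or more were present in 11 of them. All motifs were searched on both strands, and the CIC octamer as TGAATGAA, TGAATGGA, TCAATGAA or TCAATGGA. DUSP6 holds it 24 bases before the start site, and again at base 2 after it, in windows of 300 bases of which 3.77% hold at least 1. No CArG box was found in the windows of DUSP6, SPRY1, SPRY2, SPRY4 or SPRED1, and no CIC octamer in those of EGR1, SPRY1, SPRY2, SPRY4 or SPRED1. The 5-letter core of the cAMP response element, TGACG, was present in the windows of EGR1, SPRY2 and SPRY4, and in 24.6% of all windows, while the full element TGACGTCA was in none of the 6 and in 1.85% of all windows. The ETS core CCGGAA was present in windows of SPRY1 and SPRY2 and in 17.2% of all windows. The matches do not overlap one another in these windows, and a match describes letters only.

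The knockdown was visible in the targeted transcript, as SKP2 went from 92.8 TPM to 7.40 TPM in RD and, in JR1, from 46.5 TPM to 2.72 TPM. Muscle lineage markers were present in all 4 libraries, with MYOD1 at 87.0 to 131 TPM, MYOG at 31.6 to 107 TPM and DES at 36.0 to 51.3 TPM, while MYF5 was listed at 0. PAX7, a factor of muscle stem cells, fell with shSKP2 in both lines, with a change of -1.43 in each on the log2 scale of TPM + 1. Of 5 markers of other cell types, EPCAM, CDH1, PTPRC and PECAM1 reached at most 0.160 TPM and CD68 had 2.28 to 2.87 TPM. The summed level of the 6 muscle markers other than MYF5 was 412 TPM in RD shSCR and 572 TPM in RD shSKP2, and 555 and 778 TPM in JR1. CHRNA1, a subunit of the muscle acetylcholine receptor, made up the largest share of this sum, with 196 and 314 TPM in RD and 284 and 425 TPM in JR1, whereas DES went from 39.3 TPM to 43.4 TPM in RD and, in JR1, from 51.3 TPM to 36.0 TPM. Short structural RNA genes took 50.1% of the TPM in RD shSCR against 62.3% in RD shSKP2, and 57.1% against 64.9% in JR1, so less of the fixed total was left for other genes with shSKP2. The part of these shifts in the changes described here was not tested.

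Each change is log2 of the ratio of TPM + 1 with shSKP2 over TPM + 1 with shSCR in the same line, which makes the changes of weakly expressed genes look smaller. It was computed for the 12985 genes whose TPM averaged at least 1 over the libraries (called tested genes, although no significance test was run), among them all 10 output and feedback genes. The median change of these 12985 genes was -0.27 in RD and -0.21 in JR1, and changes relative to these medians are given as well. A gene is said to rise or fall when its change reached 2-fold, or 1 on the log2 scale, and this limit carries no error.

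The 10 genes did not move together. With the TPM as deposited, 6 of them were lower with shSKP2 in both lines, 2 were higher in both, and 2 (DUSP4 and SPRY4) were lower in RD and higher in JR1. That makes 8 of 10 lower in RD and 6 of 10 in JR1, near the 75.0% and 68.9% of all tested genes that were lower. Only ETV4 fell in RD and only EGR1 fell in JR1 by 2-fold, which is 1 of 10 in each line, against 7.37% and 9.05% of all tested genes. None of the 10 rose by 2-fold in RD or JR1, where 1.08% and 1.78% of all tested genes did. The median change of the 10 was -0.47 in RD and -0.12 in JR1. After the median of all tested genes was subtracted it was -0.20 and 0.10.

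Measured against those medians, none of the 10 genes was 2-fold lower in RD, where 3.53% of all genes were, and EGR1 alone was 2-fold lower in JR1, where 5.47% were. None reached a 2-fold rise on that scale, against 2.09% of all genes in RD and 2.99% in JR1, although DUSP4 in JR1 stood just short of the limit at 0.999. Directions were compared in 5 settings, namely the TPM as deposited, 0.1 TPM added in place of 1, changes relative to the median, and TPM rescaled without short structural RNA genes by a narrow and by a wide list. EGR1, ETV4 and SPRED1 were lower in both lines in all 5 settings, and DUSP5 and ETV5 were higher in both lines in all 5. A gene higher as deposited could not become lower in any other setting. Centring and rescaling act upward here, and the added TPM cannot turn a sign. The 5 settings therefore lend no support to the direction of DUSP5 and ETV5. The sign of the other 5 genes depended on the setting in at least 1 line.

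Counts of the 10 genes under the other settings are given with the share of all tested genes in parentheses. Without structural RNA genes these shares are over the 14736 (narrow list) or 15217 (wide list) genes that then pass the filter. With 0.1 TPM added, none rose (2.15% in RD and 2.91% in JR1), and 1 fell in each line (10.9% and 13.6%). After removal of the short structural RNA genes by the narrow list, DUSP5 rose in RD (3.77%) and DUSP4 rose in JR1 (4.71%), none fell in RD (3.41%) and EGR1 fell in JR1 (6.73%). The wide list gave the same genes, with shares of 4.4% and 4.91% that rose and of 3.45% and 7.49% that fell. At a limit of 1.5-fold, DUSP5 was higher in RD (3.2%) and DUSP4 in JR1 (5.31%). At that limit ETV4, EGR1, SPRY1 and SPRY2 were lower in RD (4 of 10 against 23.2%), and EGR1 and SPRED1 in JR1 (2 of 10 against 23.4%, near the share of all genes).

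**Figure D1:**
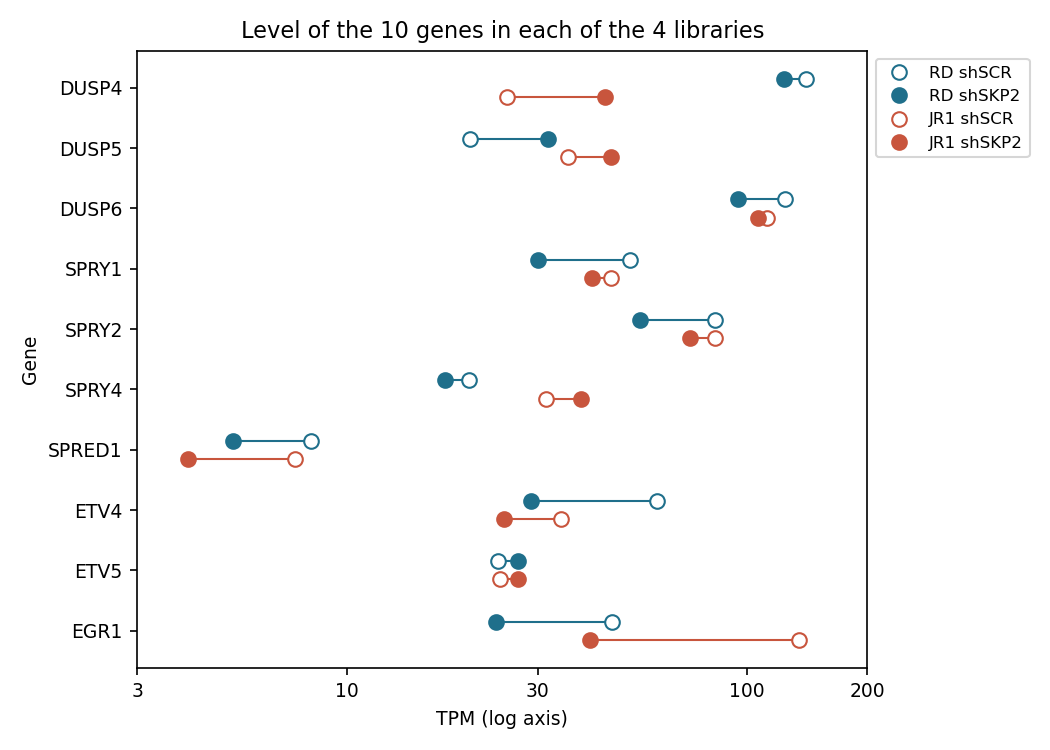
Level of each of the 10 genes in TPM on a log axis, with open points for shSCR, filled points for shSKP2 and a line joining the 2 libraries of a cell line. EGR1 in JR1 shows the longest distance, from 135 to 40.5 TPM, while the points of ETV5 lie close together and DUSP4 is set far apart between the lines.

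EGR1, a zinc finger transcription factor of the immediate early class, was lower with shSKP2 in both lines and fell by 2-fold in JR1. Its gene spans 3825 bases on chromosome 5 (bases 138465479 to 138469303, as the tables give them on GRCh38, like all gene positions here). Its level was 46.0 TPM in RD shSCR, 23.7 TPM in RD shSKP2, 135 TPM in JR1 shSCR and 40.5 TPM in JR1 shSKP2. The JR1 control was the highest of the 4 libraries and RD shSKP2 the lowest, and JR1 shSKP2 lay below RD shSCR. The change was -0.93 in RD and -1.71 in JR1, or -0.66 and -1.50 after the median was subtracted. In JR1, 1.81% of the tested genes had a lower change, and in RD 8.99% did. In the order of levels EGR1 was the highest of the 10 genes in JR1 shSCR and the sixth in JR1 shSKP2. In bulk RNA, fewer cells with a transcript and less of it per cell cannot be told apart.

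ETV4 and ETV5 are close relatives of the PEA3 group of ETS transcription factors and are induced by ERK, but their transcripts went different ways. ETV4, on chromosome 17 (bases 43527843 to 43546340), went in RD cells from 59.6 TPM to 28.9 TPM, and in JR1 cells from 34.4 TPM to 24.7 TPM. The libraries with shSKP2 were the lower ones in both lines, and the RD control stood above the other 3. The change was -1.02 (RD) and -0.46 (JR1), and -0.75 and -0.25 relative to the median, where the 2-fold limit was not reached in RD.

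ETV5, on chromosome 3 (bases 186046314 to 186109089), had 23.9 TPM in RD shSCR, 26.8 TPM in RD shSKP2, 24.2 TPM in JR1 shSCR and 26.8 TPM in JR1 shSKP2. Both lines stood at nearly the same level in each condition, with slightly more transcript after SKP2 depletion. The change was 0.16 in RD and 0.14 in JR1, above those of 85.8% and 79.4% of the tested genes. RD cells with shSCR thus held more ETV4 than ETV5 transcript, while after depletion they held 28.9 and 26.8 TPM.

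Among the DUSP phosphatases, DUSP5 was higher with shSKP2 in both lines, DUSP4 was higher in JR1, and DUSP6 lay within 0.14 of the median of all genes in both. DUSP6, the cytoplasmic phosphatase that acts selectively on ERK, lies on chromosome 12 (bases 89347235 to 89352501). It went from 124 TPM to 95.1 TPM in RD and, in JR1, from 112 TPM to 107 TPM, and was first or second in the order of the 10 genes in all 4 libraries. The changes of -0.38 and -0.07 were -0.11 and 0.14 relative to the median, so its sign depended on the scaling in both lines.

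DUSP5, a nuclear phosphatase that is also selective for ERK, lies on chromosome 10 (bases 110497907 to 110511533). It went in RD cells from 20.3 TPM to 31.9 TPM, and in JR1 cells from 35.7 TPM to 45.9 TPM. JR1 held more transcript than RD in each condition, and shSKP2 more than shSCR in each line. The change was 0.63 in RD, above that of 97.3% of the tested genes, and 0.35 in JR1, above that of 89.3%. After removal of the short structural RNA genes the change in RD was 1.04, past the 2-fold limit, and that in JR1 was 0.65.

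DUSP4, a nuclear phosphatase of ERK and of other MAP kinases, differed more between the lines than with SKP2 depletion. The gene lies on chromosome 8 (bases 29333064 to 29350684). Its level was 140.2 TPM in RD shSCR and 124 TPM in RD shSKP2, against 25.2 TPM in JR1 shSCR and 44.2 TPM in JR1 shSKP2. Both RD libraries stood above both JR1 libraries. The change was -0.17 (RD) and 0.78 (JR1), and 0.10 and 0.999 relative to the median, so that in RD its sign depended on the scaling. In JR1, 97.0% of the tested genes had a lower change than DUSP4.

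Sprouty proteins are inhibitors of receptor signalling to RAF, and SPRED1 brings the RAS-inactivating protein neurofibromin to the membrane. All 4 of these genes were lower with shSKP2 in RD as deposited, as were 75.0% of all tested genes. Their changes there ran from -0.74 to -0.19, and none of the 4 fell by 2-fold in either line. SPRY1, on chromosome 4 (bases 123396795 to 123403760), went from 50.9 TPM to 30.1 TPM in RD and, in JR1, from 45.9 TPM to 40.9 TPM. SPRY2, on chromosome 13 (bases 80335976 to 80341126), went in RD cells from 83.2 TPM to 54.2 TPM, and in JR1 cells from 83.3 TPM to 72.1 TPM. The controls of both lines held nearly the same amount of SPRY2, and the RD library with shSKP2 was the lowest for both SPRY1 and SPRY2.

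The changes of SPRY1 were -0.74 in RD and -0.16 in JR1, and those of SPRY2 were -0.61 and -0.21. Relative to the median they were -0.47 and -0.34 in RD, but 0.05 and 0.01 in JR1. Both genes were therefore below the median of all genes in RD and close to it in JR1. SPRY4, on chromosome 5 (bases 142310430 to 142325021), went from 20.2 TPM to 17.7 TPM in RD and, in JR1, from 31.4 TPM to 38.5 TPM. It was the only Sprouty gene of the 3 that was higher with shSKP2 in JR1 as deposited, with a change of 0.29 there and of -0.19 in RD. In RD its change was 0.08 relative to the median, so its sign there depended on the scaling.

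SPRED1 was the lowest of the 10 genes in every library and was lower with shSKP2 in both lines. Its gene is the longest of the 10, with 105163 bases on chromosome 15 (bases 38252087 to 38357249). Its level went in RD cells from 8.16 TPM to 5.21 TPM, and in JR1 cells from 7.43 TPM to 4.01 TPM. The change was -0.56 (RD) and -0.75 (JR1), and -0.29 and -0.54 relative to the median. At this level the added 1 TPM matters most, and with 0.1 TPM added the changes were -0.64 and -0.87.

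**Figure D2:**
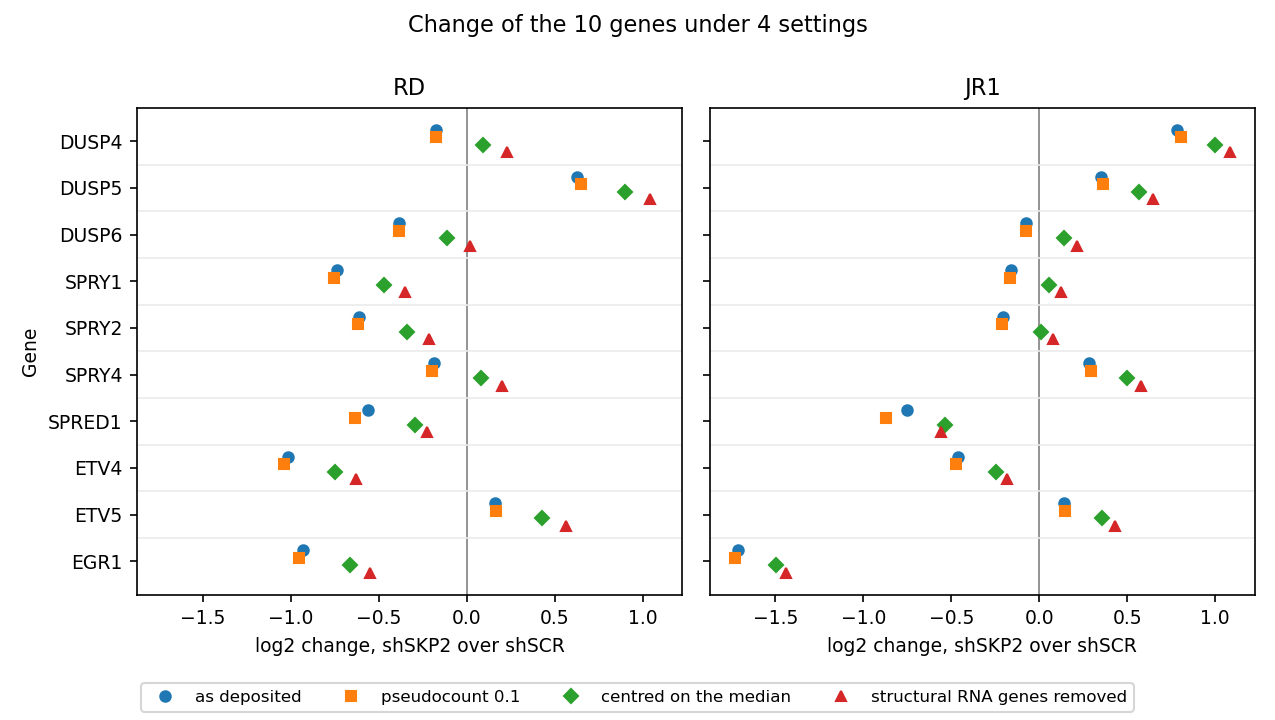
Log2 change of each of the 10 genes with shSKP2 over shSCR in RD (left) and JR1 (right), under 4 settings shown by the shape of the point. EGR1, ETV4 and SPRED1 lie left of 0 and DUSP5 and ETV5 right of 0 in both panels for every shape, while DUSP6 has points on both sides of 0.

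The control cells of the lines differed in a few of these genes. In shSCR, DUSP4 TPM were 5.56-fold higher in RD and EGR1 TPM were 2.93-fold higher in JR1, both past the 2-fold limit on the log2 scale of TPM + 1. Among all tested genes, 6.5% were 2-fold higher in RD and 3.45% were 2-fold higher in JR1. The remaining 8 genes differed by less than 2-fold between the controls, and the levels of SPRY2 and ETV5 differed by a factor of 1.00 and 1.01 (JR1 over RD). The median log2 ratio of RD over JR1 over all tested genes was 0.23 in shSCR and 0.17 in shSKP2.

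With shSKP2, DUSP4 was 2.81-fold higher in RD, where 5.39% of all genes were 2-fold higher, and SPRY4 was 2.18-fold higher in JR1, where 2.7% were. EGR1 was 1.71-fold higher in JR1 with shSKP2 and no longer past the limit. In these 4 libraries the lines were closer to each other with shSKP2 than in the controls in DUSP4, EGR1, DUSP5, ETV4 and ETV5. They were farther apart in SPRY4, SPRY1, SPRY2, SPRED1 and, by little, DUSP6. The difference between the responses of the lines (change in RD minus change in JR1) was -0.96 for DUSP4 and 0.78 for EGR1, and between -0.58 and 0.28 for the other 8 genes. The order of levels without replicates has no spread, so neighbours in that order cannot be called different.

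**Figure D3:**
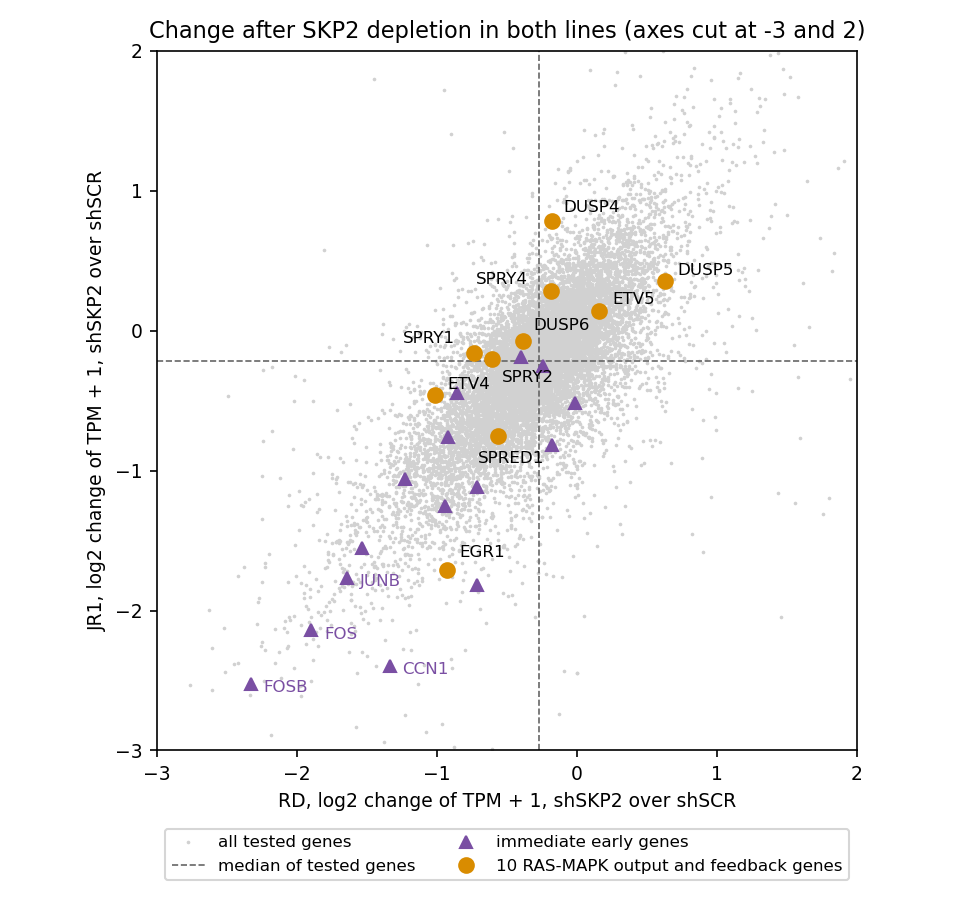
Log2 change of TPM + 1 with shSKP2 over shSCR in RD (x axis) and JR1 (y axis) for the tested genes, with the 10 output and feedback genes as circles, 15 immediate early genes as triangles and dashed lines at the median of all tested genes (-0.27 and -0.21). EGR1 lies at -0.93 and -1.71 near several triangles, and the other 9 circles lie above -1 on the y axis.

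The pattern of each gene over the 4 libraries was compared with that of every tested gene, by the Euclidean distance between log2(TPM + 1) values centred on the mean of the gene. For EGR1 the nearest genes were THEMIS2 (distance 0.06), ANGPTL2 (0.12) and PARP10 (0.23), and for DUSP6 they included CDK4 (0.02) and PIGY (0.03). For DUSP4 they were PAX2 (0.21), MVB12B (0.23) and VSIR (0.29), all with far lower levels, such as 8.28 TPM for PAX2 in RD shSCR. The nearest genes were OSTM1, FOSL2 and HSPB8 for DUSP5, UBXN6, MRNIP and CHMP2B for SPRY1, OST4, PDCD4 and DNAJB2 for SPRY2, and ANKIB1, VPS50 and BATF2 for SPRY4. They were NSDHL, PCYOX1 and NFKBIB for SPRED1, and MSH5, TMEM143 and ARL6IP6 for ETV4, and they included TMEM25 and TVP23B for ETV5. Within the 10 genes, SPRY1 and SPRY2 were nearest to each other (0.12). EGR1 and DUSP4 stood far from all others, with SPRY2 at 1.44 as the nearest to EGR1 and ETV4 at 1.80 as the nearest to DUSP4. With 4 libraries such distances describe these libraries only.

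The rest of the pathway was described with 96 genes in 9 lists by role, of which 82 were tested. The lists were also chosen with earlier results of these data known. In RD, 1 of the 82 rose and 12 fell, and in JR1, 2 rose and 19 fell. The rises are 1.22% in RD and 2.44% in JR1, near the 1.08% and 1.78% of all tested genes. The falls are 14.6% in RD and 23.2% in JR1, against the 7.37% and 9.05% of all tested genes given above. The median change of the 82 was -0.29 in RD and -0.23 in JR1, close to those of all genes. Without the list of immediate early genes, 6 of 67 fell in RD and 10 of 67 in JR1, or 8.96% and 14.9%. The 67 still hold genes that can be counted as immediate early, so these shares are not free of that class. Among them are the phosphatase gene DUSP1, which fell in both lines, and IER3, which fell in JR1.

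Immediate early genes are switched on by ERK and other signals without new protein synthesis, and EGR1 belongs to this class. Of 17 on the list, 15 were tested, and all 15 were lower with shSKP2 in both lines as deposited, and their median change was -0.92 (RD) and -1.12 (JR1). They fell by 2-fold in 6 cases in RD and in 9 in JR1, or 40% and 60%, against 7.37% and 9.05% of all tested genes. Relative to the median of all genes, 5 of the 15 were 2-fold lower in RD and 7 in JR1, against 3.53% and 5.47%. FOSB, a subunit of the AP-1 factor, was the lowest in both lines and went from 30.5 TPM to 5.27 TPM in RD and, in JR1, from 42.8 TPM to 6.62 TPM. FOS, its best known relative, went in RD cells from 93.5 TPM to 24.4 TPM, and in JR1 cells from 109.8 TPM to 24.1 TPM, changes of -1.90 and -2.14. The highest changes were those of JUN in RD (-0.01) and NR4A3 in JR1 (-0.18), which relative to the median were 0.26 and 0.03. With the median of all genes subtracted, 12 of the 15 stayed below 0 in RD and 14 in JR1. EGR2 and EGR4 had a mean below 1 TPM and were not tested.

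Other ERK outputs were mixed, as were the 10 genes. CCND1, the cyclin D1 gene that drives entry into the cell cycle, fell in both lines, from 55.1 TPM to 16.6 TPM in RD and, in JR1, from 107 TPM to 29.4 TPM, changes of -1.68 and -1.82. EPHA2, a receptor tyrosine kinase induced by ERK, was the highest of the 11 tested genes, with changes of 0.80 in RD and 0.64 in JR1. PHLDA1 had changes of -0.27 and -0.43, which were 0.00 and -0.22 relative to the median. The median of the list was -0.27 in RD, equal to that of all tested genes, and -0.52 in JR1, and 2 of 11 fell in RD and 3 of 11 in JR1, where 7.37% and 9.05% of all tested genes fell.

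The other MAPK phosphatases were also mixed. DUSP1, an immediate early phosphatase with a preference for p38 and JNK, fell in both lines, from 65.3 TPM to 29.1 TPM in RD and, in JR1, from 98.9 TPM to 43.4 TPM, changes of -1.14 and -1.17 that were -0.87 and -0.96, short of 2-fold, relative to the median. DUSP16, which acts mainly on JNK, was the highest of the 6 tested, with changes of 0.63 in RD and 1.49 in JR1. Their median was 0.39 in RD cells and 0.10 in JR1 cells.

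Upstream of ERK, few genes changed by 2-fold. Of the 13 genes of RAS, RAF, MEK and ERK with their scaffolds, MRAS, a RAS relative that activates RAF with SHOC2, rose in both lines, from 1.66 TPM to 5.27 TPM in RD and, in JR1, from 3.96 TPM to 11.3 TPM. MAPK3, which encodes ERK1, was the lowest of them at -0.94 in RD and -0.64 in JR1, and the median of the list was -0.16 in RD and 0.01 in JR1. None of the 7 adaptors and exchange factors and none of the 4 inhibitors of RAS changed by 2-fold. Of all tested genes, 1.08% rose and 7.37% fell in RD, and 1.78% rose and 9.05% fell in JR1. In lists this short, counts of 0 are near those shares. The extremes of the adaptors were SHC1 (-0.47 and -0.69) below, and GRB2 (0.12 in RD) and SOS2 (0.46 in JR1) above, while RASA2 (-0.55 and -0.36) and RASA1 (-0.14 and 0.08) bounded the inhibitors. NF1, which encodes neurofibromin, had changes of -0.18 in RD and -0.12 in JR1.

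Among receptors and ligands, FGFR4 and FGF2 fell in both lines. Of 8 tested receptors, 1 fell in RD and 2 in JR1. Of 5 tested ligands, 1 fell in each line, where 7.37% (RD) and 9.05% (JR1) of all tested genes fell. FGFR1 fell in JR1 only, from 51.4 TPM to 24.3 TPM, a change of -1.05 that was -0.83, short of 2-fold, relative to the median. FGFR4, a receptor typical of rhabdomyosarcoma, fell from 49.3 TPM to 12.6 TPM in RD and, in JR1, from 46.9 TPM to 17.3 TPM, and FGF2, a ligand of FGF receptors, fell in RD cells from 5.45 TPM to 0.770 TPM, and in JR1 cells from 6.71 TPM to 0.730 TPM. FGFR4 was the lowest of the 8 tested receptors and ERBB3 the highest, with changes of 0.10 in RD and 0.61 in JR1. Of the 5 tested ligands HBEGF, a ligand of the EGF receptor, was the highest in RD (0.99) and FGF1 the highest in JR1 (-0.11). Relative to the median these were 1.26, past the 2-fold limit, and 0.10. The median receptor change was -0.24 (RD) and -0.23 (JR1), and the median ligand change -0.39 and -0.40. The sign of some of these medians depended on the setting, as the ligand median in RD was 0.19 with a minimum of 5 TPM, 0 without a filter and 0.06 without structural RNA genes, and the receptor median in JR1 was 0.03 without a filter.

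Of the 13 tested kinases and factors under ERK, 1 fell in RD, near the 7.37% of all tested genes, and 3 fell in JR1, where 9.05% of all did. Relative to the median 0 of the 13 were 2-fold lower in RD and 2 in JR1, against 3.53% and 5.47% of all tested genes. ELK3, an ETS factor of the ELK family, was the lowest in RD at -1.01 (-0.74 relative to the median, short of 2-fold) and also fell in JR1 at -1.23, while RPS6KA1, which encodes a kinase activated by ERK, was the lowest in JR1 at -1.34. ELK1 (-0.01 in RD) and SRF (0.21 in JR1) were the highest. CIC, the repressor of DUSP6 and ETV genes, went from 36.7 TPM to 28.3 TPM in RD and, in JR1, from 35.1 TPM to 30.4 TPM, changes of -0.36 and -0.20, or -0.09 and 0.01 relative to the median. Their median was -0.59 in RD cells and -0.20 in JR1 cells. The differences between lists were not tested.

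**Figure D4:**
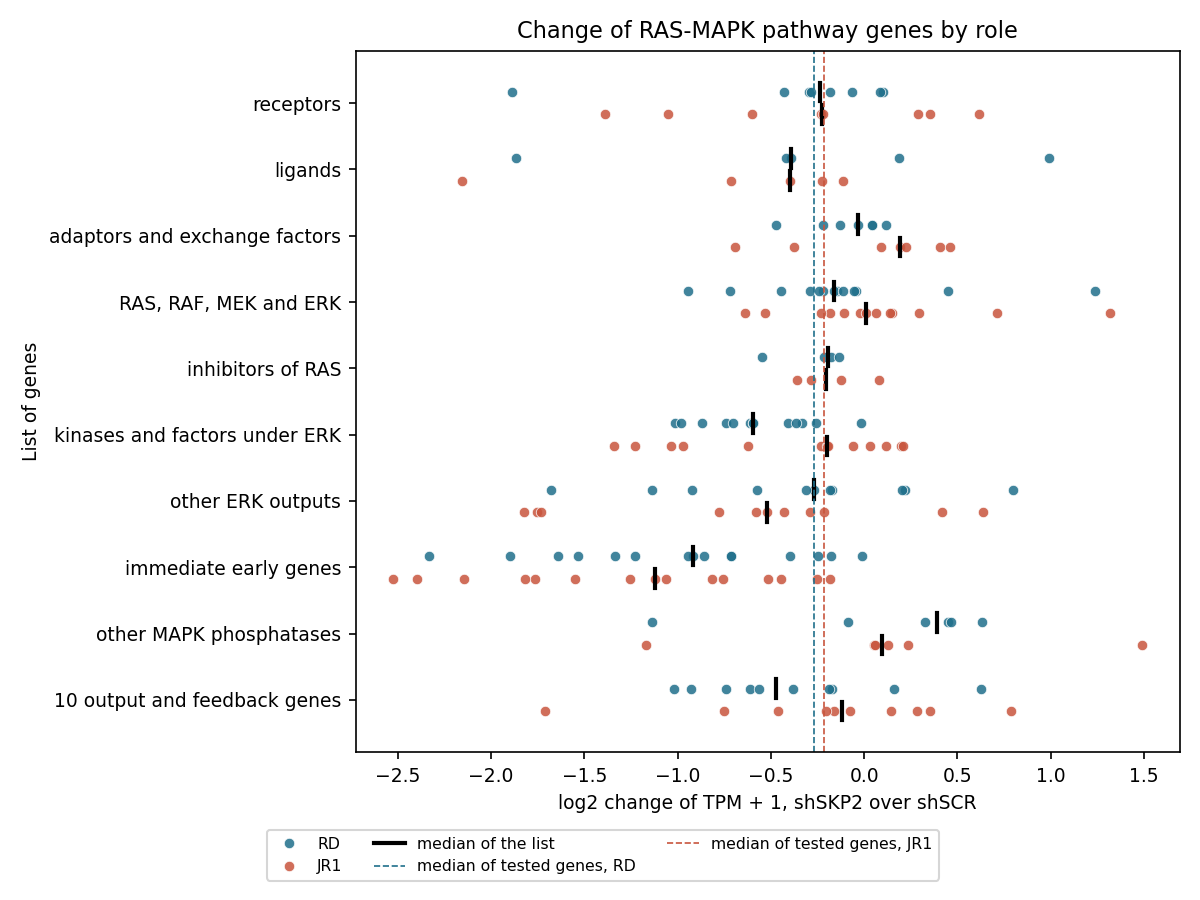
Log2 change of TPM + 1 with shSKP2 over shSCR for the tested genes of each list, in RD (blue) and JR1 (red), with a black bar at the median of the list and dashed lines at the median of all tested genes. The immediate early genes spread from -2.33 to -0.01 in RD and from -2.52 to -0.18 in JR1, while the bars of the other lists lie between -0.59 and 0.39.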

How the data were processed

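RNA of the 4 libraries was poly-A selected and read as pairs of 150 bases. STAR 2.7.9a placed the reads on GRCh38 and RSEM 1.3.2 estimated expression, and the authors deposited its TPM, rounded to 2 decimals, which were used as they are. A fixed total means that a larger share of short structural RNA genes (655 by symbol, or 2956 in the wide list with RMRP, RPPH1, transfer RNA and miRNA genes) lowers all other values. No test was run, since each group had 1 library. Named genes are the 10 members, SKP2, the highest and lowest tested gene of each list in each line, DUSP1, CIC, NF1, CCND1, PHLDA1, FOS, FGFR4 and the 3 nearest patterns of each member, some of which are not reported here. Marker genes, FGFR1, IER3 and those named for being untested (EGR2, EGR4) are additional. Members, lists and motifs were chosen with earlier results of these data known. Alternatives were 0.1 TPM added, centring on the median, removal of structural RNA genes by either list, no filter, a minimum mean of 5 TPM and a limit of 1.5-fold. The computation was tested on simulated data. Python 3.11.15, numpy 2.4.6, pandas 2.3.3 and matplotlib 3.10.9 were used.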

Additional observations from a re-analysis of the deposited data

Results flagged for a closer look

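The values here are differences between the change in RD and the change in JR1 for named genes that moved in opposite directions in the lines as deposited. None of them was tested, since each group had 1 library. Of 38 tested named genes, 7 met this condition, and 2 of them are among the 10 output and feedback genes. DUSP4 had a difference of -0.96 and SPRY4 of -0.47, and relative to the median of all genes both were above 0 in both lines. HBEGF had the largest difference of the 7, 1.71, as it went from 1.71 TPM to 4.39 TPM in RD and, in JR1, from 11.2 TPM to 6.44 TPM, and its directions were also opposite relative to the median. SOS2 had a difference of -0.59, SRF of -0.47, RASA1 of -0.22 and ELK1 of -0.21, and relative to the median these 4 genes were above 0 in both lines as well.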

How the results depend on the processing

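The counts at 2-fold rest on few genes and the scaling moved them. Relative to the median of all genes, 0 of the 10 genes fell in RD, 3 were lower in both lines and 4 higher in both, and their median change was -0.20 in RD and 0.10 in JR1. Without short structural RNA genes 1 of the 10 rose in each line (DUSP5 in RD and DUSP4 in JR1), 0 fell in RD, 3 were lower and 5 higher in both lines, and the medians were -0.10 and 0.17, or -0.080 (RD) and 0.14 (JR1) with the wide list and the same counts. With a limit of 1.5-fold, 1 rose and 4 fell in RD (3.2% and 23.2% of all tested genes), and 1 rose and 2 fell in JR1 (5.31% and 23.4%). Counts of the pathway genes are given with the share of all tested genes in parentheses. Without structural RNA genes more genes pass the filter, 14736 by the narrow list and 15217 by the wide list. Counts and shares in these settings rest on those genes, so pathway genes outside the 82 can enter. In RD, 2 rose with 0.1 TPM added (2.15%) and 3 relative to the median (2.09%). Without structural RNA genes, 4 rose in RD by the narrow list (3.77%) and by the wide list (4.4%). In JR1, 4 rose (4.71%) and 12 fell (6.73%) after removal by the narrow list, and 4 rose by the wide list (4.91%). At 1.5-fold, 4 of the 82 rose and 27 fell in RD, and 5 rose and 28 fell in JR1, to be read against the same shares. A minimum of 5 TPM or no filter moved none of these counts and medians, which leave out those of single lists, by more than 1.5 times or 0.1 on the log2 scale. Among the 38 tested named genes, none past the 2-fold limit changed its sign in any setting, and other genes were not checked. Depth is unknown, so counting error could not be given.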
